A study of Homo sapiens with 34 samples.

Results

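Cells that meet low oxygen switch on a shared set of genes and lean on glycolysis. The switch is the hypoxia-inducible factor (HIF), a pair of an oxygen-sensitive alpha subunit (HIF1A or EPAS1) and the constant partner ARNT. With oxygen present, prolyl hydroxylases such as EGLN1 mark the alpha subunits for destruction, so the protein is set largely after transcription; HIF targets cover glucose uptake, the glycolytic enzymes, lactate and acid export, angiogenic factors, collagen hydroxylases and mitophagy receptors. Here 41 such genes were followed across a set of genome edits. They are a list of gene symbols, not picked by a threshold on their values, among 29324 genes with at least 1 measured intron, and 39 of them were among the 12081 genes that passed the filter on low counts and were tested. The list was chosen with earlier results of these data known, so counts of calls within it are given as a description. The other two, the prolyl hydroxylase EGLN3 (at most 2 reads in a library) and the carbonic anhydrase CA12 (at most 3), were too low to test.

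The cells were hTERT RPE-1, a telomerase-immortalised human retinal pigment epithelial line, carrying hybrid guide RNAs (hgRNAs), in which guides for Cas9 and Cas12a sit on 1 transcript and the segment between their cuts is removed. All 34 libraries, in 17 hgRNA groups with duplicate cultures each, came from total RNA depleted of ribosomal RNA. Lentivirus was given at a multiplicity below 1, puromycin (20 µg/ml) for 72 h, and RNA was taken 4 days later at 50 to 70% confluency. The labels name no cloning step, and the share of edited cells was not analysed here. Cells grew in a humidified incubator, and no low-oxygen treatment is named in the labels. Controls were 2 hgRNAs cutting intergenic sites (4 libraries). Edited groups of 4 libraries each carried deletions in DDX5 (within an intron), in FNBP4 (within an intron, hgRNA 1 and 2), and across an exon with a premature termination codon (PTC exon) of FNBP4 (hgRNA 3 and 4), DDX17 or HDAC7; titles of these last 3 call them intronic too. Groups of 2 libraries each carried an intronic deletion in HNRNPD or an exon-directed knockout of DDX5, DDX17, FNBP4 or HDAC7. DDX5 and DDX17 are related RNA helicases, HNRNPD an RNA-binding protein, FNBP4 a WW-domain protein and HDAC7 a histone deacetylase. The FNBP4 and HDAC7 knockouts are labelled with an identical Cas9 guide, which the HDAC7 knockout label repeats as its Cas12a guide, so which gene it cuts cannot be told from the labels. Both HDAC7 deletion hgRNAs share a Cas9 guide and differ in the Cas12a guide.

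The results turn on the DDX5 groups, so their guides are shown beside those of the controls, 5′ to 3′, as the labels give them. No 2 of these 5 hgRNAs share a guide, so the 2 DDX5 deletions come from different pairs of cuts.
control hgRNA 1, Cas9: ctatccagagtagatcatta
control hgRNA 1, Cas12a: aaacccagtccccaatgtgatga
control hgRNA 2, Cas9: tccgttagcttcatcctatc
control hgRNA 2, Cas12a: gcctgagacctaaagggctattg
DDX5 deletion hgRNA 1, Cas9: gacgactactgtgtaggtga
DDX5 deletion hgRNA 1, Cas12a: acctctctaatcgactggaagca
DDX5 deletion hgRNA 2, Cas9: gacaatcggaggactcgagg
DDX5 deletion hgRNA 2, Cas12a: ccacttactatgtgtgagaagtt
DDX5 knockout, Cas9: aagtctacttgtatctacgg
DDX5 knockout, Cas12a: accattacccccttcccaggact

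Expression was read as sequenced fragments crossing spliced junctions, summed per gene, with totals of 12353936 to 20233610 per library, and is given as CPM, the usual depth-scaled count (reads over the scaled library total, times 1e6). CPM is not per length, so levels are compared between libraries and never between genes. The edited gene itself was lower in 3 cases. DDX5 had 419.6, 399.5, 417.0 and 389.3 CPM in its intron deletion against 572.6, 521.3, 527.1 and 585.6 in controls (log2 difference -0.44, adjusted p = 0.04415), and 133.4 and 167.1 in its knockout (-1.88, adjusted p = 8.305e-07). DDX17 was lower in its knockout (-0.44, adjusted p = 0.01332). FNBP4 was 3.10-fold higher where its PTC exon was deleted (1.63, adjusted p = 1.257e-05). In the other 6 edits the edited gene was not called (log2 differences from -0.31 to 0.34), so its level does not check those labels. Of 14 markers of retinal pigment epithelium 7 passed the filter, among them KRT8, KRT18, MITF and OTX2, while RPE65, BEST1, RLBP1, LRAT, TYRP1 and TTR had at most 10 reads in any library and TYR had 0. Of 18 markers of other tissues 5 passed the filter. The neuronal gene SYT1 reached 1561 reads in a library and CD68 812, where MITF reached 436 and OTX2 152. The rest of the 18 had at most 41 reads in any library. Replicate 2 of control hgRNA 1, of DDX17 deletion hgRNA 1 and of HDAC7 deletion hgRNA 1 differed from their replicate 1 in a like way over all genes (correlations of 0.518 to 0.663). Reads across exon-intron boundaries made up 5.005, 5.904 and 5.392% of junction reads in these, more than in their replicate 1 (4.173, 4.106 and 3.76%). In bulk RNA, fewer cells with a transcript and less of it per cell cannot be told apart.

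Deletion within the DDX5 intron lowered 18 of the 39 tested genes and raised 2, against 9.68% of all tested genes lower and 7.23% higher. The falls reached every functional class apart from the HIF subunits and sensors: acid and lactate export, collagen hydroxylases, a mitophagy receptor, stress and chromatin genes, glucose uptake and 7 glycolytic enzymes. The median log2 difference was -0.33 over the 39 genes and -0.003038 over all tested genes. In 25 of the 39 genes all 4 deletion libraries lay below all 4 controls, and in 2 all lay above. Of all tested genes 16.3% had every deletion library below and 17.1% had every one above. Fitted alone, hgRNA 1 gave 18 lower and 2 higher (median -0.46) and hgRNA 2 gave 11 lower and 1 higher (median -0.27). The share of all tested genes called in these single fits was not computed. In the authors' deposited table, made from another quantification of these libraries, 15 of the 41 genes were lower and 1 higher at a false discovery rate under 0.05 with hgRNA 1 (8.26% of all genes in that table in either direction), and 13 lower and 1 higher with hgRNA 2 (5.48%). All 20 genes called here with hgRNA 1 alone, and all 12 with hgRNA 2 alone, had the same sign in the authors' deposited table.

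**Figure D1:**
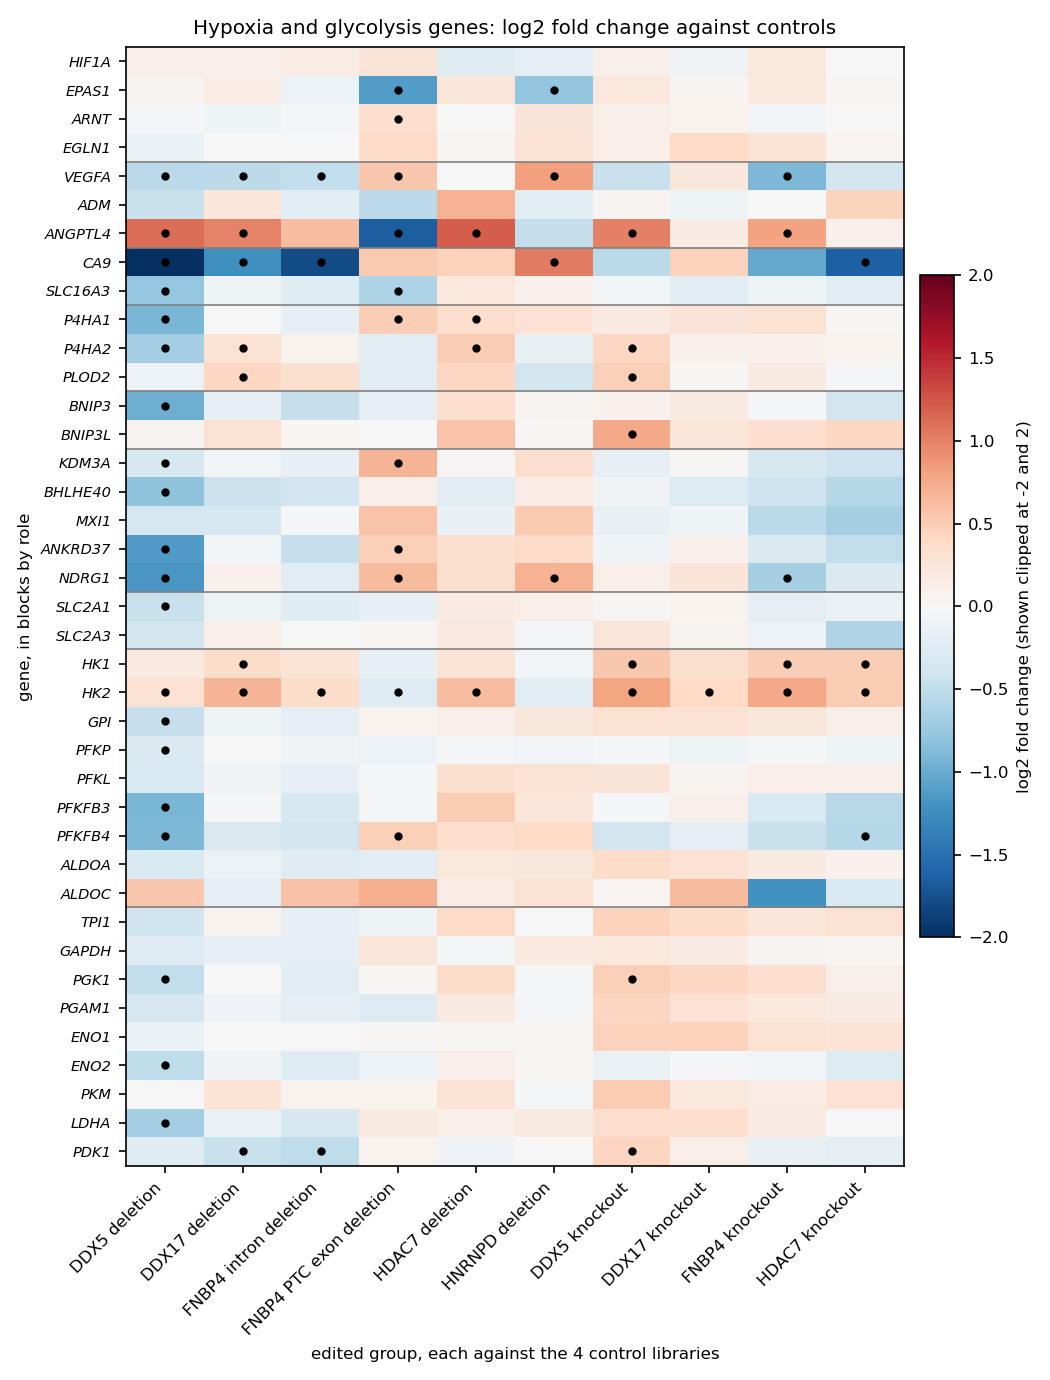
Log2 fold change of each of the 39 tested genes (rows, in blocks by role) in each of the 10 edited groups (columns) against the 4 control libraries, with a dot where the adjusted p was under 0.05 and colours clipped at -2 and 2. The DDX5 deletion column holds 18 blue and 2 red dotted cells, while HK2 is dotted in 9 of the 10 columns, red in 8 of them.

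The gene with the greatest fall was CA9, a carbonic anhydrase on the cell surface that helps to keep the cytoplasm from turning acid and is a widely used marker of hypoxia. CA9 had 11.46, 24.99, 13.97 and 13.60 CPM in controls and 0.5961, 0.4694, 1.303 and 0.7918 CPM in the DDX5 deletion, the latter from 11, 8, 22 and 13 reads. All 4 deletion libraries lay far below all controls, and the few reads limit how well the size of the fall is known. The log2 difference was -4.31 (95% interval -5.42 to -3.20, SE 0.537, adjusted p = 7.087e-06), a level 19.9-fold higher in controls, and ranged from -4.77 to -3.21 over the 21 alternative analyses. The authors' deposited table gave CA9 a log2 fold change of -5.11 with hgRNA 1 and -4.05 with hgRNA 2. SLC16A3, the lactate exporter MCT4, had 255.1, 322.9, 280.1 and 228.8 CPM in controls and 150, 150.8, 172.8 and 159.2 in the deletion, with no overlap (log2 difference -0.77, SE 0.214, adjusted p = 0.01482). That call was lost on removal of replicate 2 of control hgRNA 1 (adjusted p = 0.07856), control hgRNA 2 replicate 1 (0.0761) or DDX5 deletion hgRNA 2 replicate 2 (0.05786).

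Genes of transcription, chromatin and stress response fell in 4 of 5 cases in the DDX5 deletion. NDRG1, a stress-responsive cytoplasmic protein, had 32.37, 37.82, 35.89 and 38.15 CPM in controls and 16.47, 13.79, 17.29 and 16.87 in the deletion, so that the ranges were well apart (-1.16, SE 0.125, adjusted p = 9.979e-07). ANKRD37, a small ankyrin-repeat protein induced by HIF, had 6.779, 7.348, 7.345 and 6.152 CPM in controls and 3.414, 2.640, 3.672 and 2.863 in the deletion. These too did not overlap (-1.13, SE 0.189, adjusted p = 0.0002256). BHLHE40, a circadian and hypoxia-linked transcriptional repressor, fell by 0.80 on the log2 scale (adjusted p = 0.003993). KDM3A, a histone H3 lysine demethylase, was called lower by 0.32 on the log2 scale with overlapping libraries and an adjusted p of 0.04888. Its call did not survive leaving out any 1 of 7 of the 8 libraries (adjusted p up to 0.1724, without DDX5 deletion hgRNA 2 replicate 2). MXI1, an antagonist of MYC, stood at 15.26 to 20.28 CPM against 15.78 to 24.77 in controls and was not called.

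P4HA1 and P4HA2, catalytic subunits of collagen prolyl 4-hydroxylase, fell. P4HA1 had 162.2, 167.0, 179.3 and 195.7 CPM in controls and 89.31, 86.90, 105.7 and 89.84 in the DDX5 deletion, a clean separation (-0.92, SE 0.0885, adjusted p = 2.419e-07). P4HA2 had 182.0, 201.2, 198.2 and 208.2 CPM in controls and 119.4, 117.1, 128.0 and 123.8 in the deletion, again without overlap (-0.69, SE 0.0795, adjusted p = 2.249e-06). PLOD2, which hydroxylates collagen lysines for crosslinking, was not called (1092 to 1332 CPM against 1080 to 1502). BNIP3, a mitophagy receptor of the outer mitochondrial membrane, had 256.2, 323.8, 304.6 and 305.8 CPM in controls and 145.9, 134.4, 167.4 and 157.9 in the deletion. Its libraries did not overlap (-0.97, SE 0.132, adjusted p = 2.116e-05), whereas its relative BNIP3L lay at 257.2 to 310.1 CPM within a control range of 231.6 to 317.6.

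Among secreted factors the deletion moved 2 genes in opposite directions. VEGFA, the main angiogenic growth factor, had 93.60, 104.0, 79.18 and 81.65 CPM in controls and 56.68, 52.22, 70.18 and 68.95 in the deletion, all below the lowest control (-0.53, SE 0.128, adjusted p = 0.005645). ANGPTL4, a secreted inhibitor of lipoprotein lipase that HIF and PPAR factors can both induce, went the other way. It had 5.623, 6.505, 10.02 and 6.260 CPM in controls and 13.01, 15.55, 15.58 and 16.38 in the deletion, every library above every control (1.12, SE 0.198, adjusted p = 0.000402). The peptide hormone ADM was at 41.19 to 49.16 CPM against 50.35 to 75.23 and was not called.

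In glycolysis the regulators of the committed step fell most. PFKFB3 and PFKFB4 make and break fructose 2,6-bisphosphate, the activator of phosphofructokinase. PFKFB3 had 40.41, 52.40, 45.29 and 46.30 CPM in controls and 24.93, 20.60, 27.78 and 24.30 in the DDX5 deletion (-0.92, SE 0.15, adjusted p = 0.0001833). PFKFB4 had 18.50, 20.60, 19.97 and 17.92 CPM in controls and 9.700, 9.447, 13.50 and 8.954 in the deletion (-0.90, SE 0.13, adjusted p = 4.601e-05). Neither gene had an overlapping library. LDHA, which reduces pyruvate to lactate, fell by 0.69 on the log2 scale from 1955, 2082, 2082 and 2070 CPM to 1218, 1185, 1401 and 1279 (SE 0.12, adjusted p = 0.0003555). Smaller falls without overlap were called for ENO2 (-0.51), PGK1 (-0.49), the isomerase GPI (-0.46), the glucose transporter SLC2A1 (-0.44) and the platelet-type phosphofructokinase PFKP (-0.29). The SLC2A1 call was lost without control hgRNA 2 replicate 1 (adjusted p = 0.08386) and without 3 other single libraries (control hgRNA 1 replicate 2, 0.07684; DDX5 deletion hgRNA 1 replicate 1, 0.05341; hgRNA 2 replicate 2, 0.06067). HK2, the hexokinase bound to mitochondria, was instead higher (0.31, adjusted p = 0.01493). Its call was lost without DDX5 deletion hgRNA 1 replicate 1 (0.0613), hgRNA 2 replicate 1 (0.05753) or control hgRNA 1 replicate 1 (0.05611). The abundant housekeeping steps ALDOA, TPI1, GAPDH, PGAM1, ENO1 and PKM were not called, with log2 differences between -0.39 and -0.01. Several of these enzymes (GAPDH, PGK1, PGAM1, LDHA, TPI1, ENO1, ALDOA and PKM) have processed pseudogenes, and how reads were divided among copies is not given in the sources used here.

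HIF1A, EPAS1, ARNT and EGLN1 were not called in the DDX5 deletion. HIF1A had 829.2, 584.0, 764.6 and 807.9 CPM in controls and 775.9, 855.8, 771.6 and 832.7 in the deletion (log2 difference 0.13, 95% interval -0.23 to 0.48). EPAS1 had 121.9, 127.6, 152.7 and 144.7 CPM in controls and 137.3, 141.0, 137.2 and 153.5 in the deletion (0.06, interval -0.12 to 0.24). ARNT differed by -0.03 (interval -0.23 to 0.16) and EGLN1 by -0.14 (interval -0.51 to 0.24). The libraries of each overlapped, and protein was not measured. In the direct comparisons HIF1A, EPAS1, ARNT and PKM differed by 0.03, -0.15, -0.15 and -0.51 from the DDX5 knockout and by 0.03, -0.08, 0.06 and -0.29 from the DDX17 deletion on the log2 scale, with 0 called. HIF1A was never called against controls in any edited group, with log2 differences from -0.24 to 0.25. Its lowest levels were in the 3 libraries that stood apart from their replicates: 584.0 against 829.2 CPM for control hgRNA 1, 492.3 against 995.8 for DDX17 deletion hgRNA 1 and 412.4 against 728.9 for HDAC7 deletion hgRNA 1. The share of exon-intron reads was 4.365 to 5.245% in the DDX5 deletion and 4.141 to 5.005% in controls. Without those 3 libraries the DDX5 deletion had 19 genes lower and 2 higher, including all 20 called with them.

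**Figure D2:**
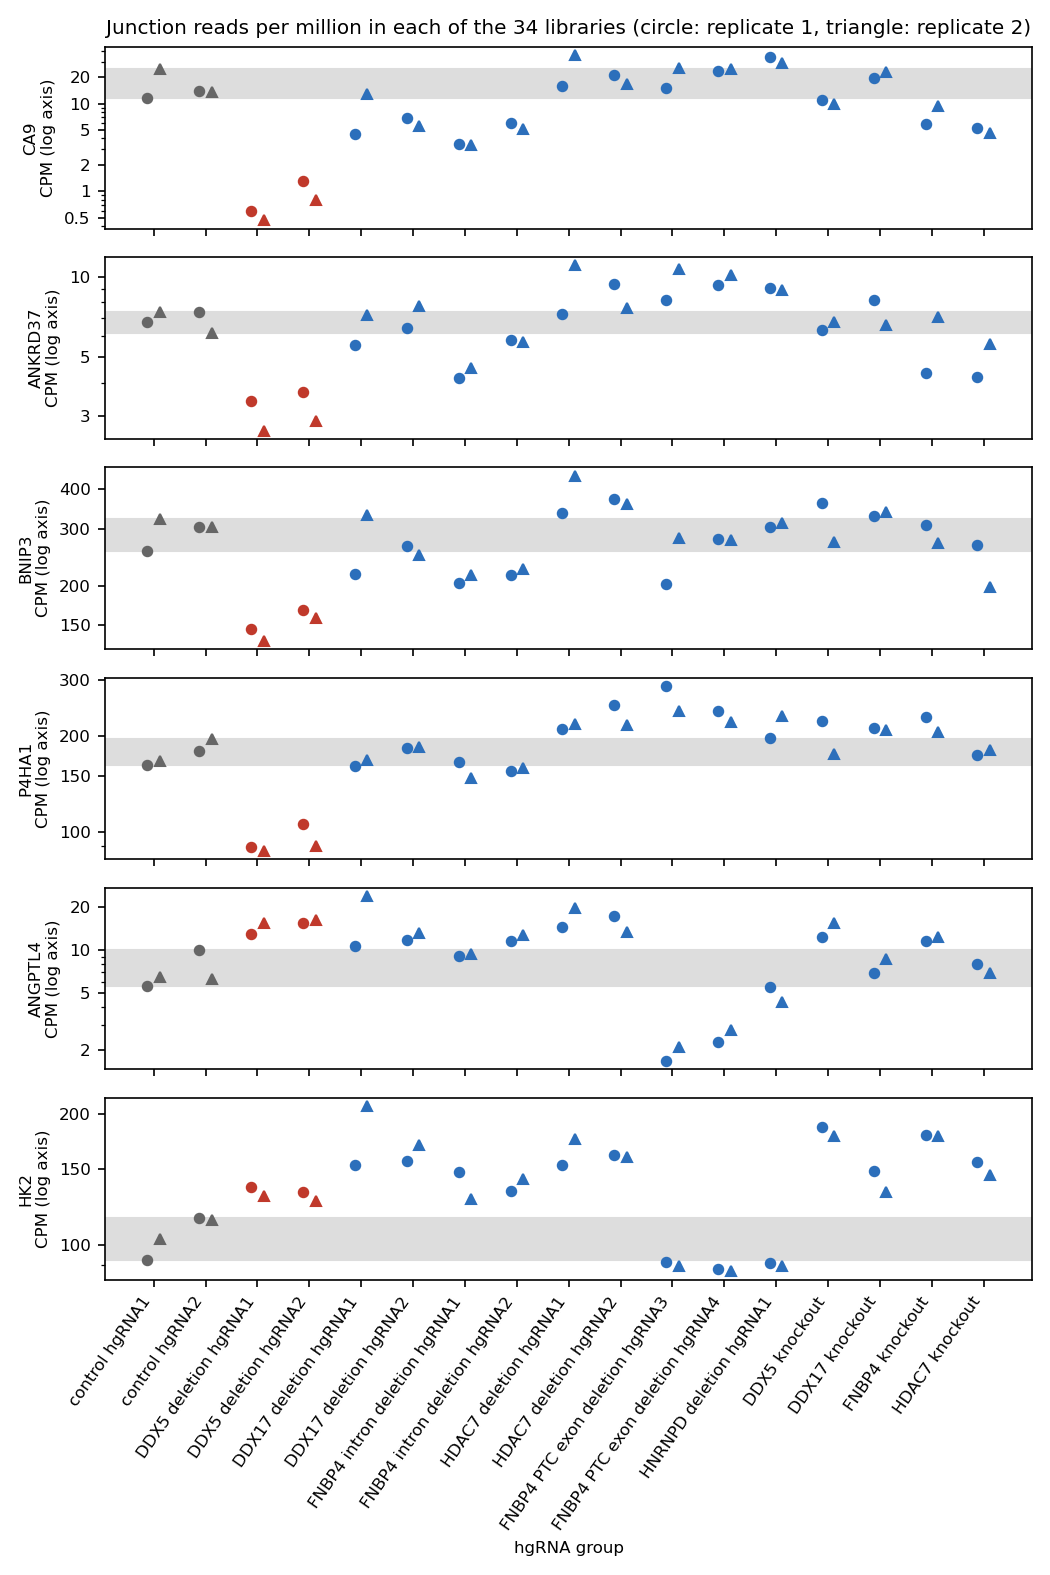
CPM (log axis) of 6 genes in each of the 34 libraries, by hgRNA group, with replicate 1 as a circle and replicate 2 as a triangle. Controls are grey with their range shaded, the DDX5 deletion is red and the other edits are blue; the 4 red points lie below the shaded band for CA9, ANKRD37, BNIP3 and P4HA1 and above it for ANGPTL4 and HK2.

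Because the same 4 control libraries enter all 10 comparisons, the DDX5 deletion was also set directly against the DDX5 knockout. Of the 39 genes 18 were lower in the intron deletion and 0 higher, against 2.65% and 1.75% of all tested genes, and in 30 genes all 4 deletion libraries lay below both knockout libraries (22.1% of all tested genes did so). CA9 had 0.5961, 0.4694, 1.303 and 0.7918 CPM in the deletion and 11.08 and 9.790 in the knockout (-3.77, 95% interval -4.97 to -2.57, adjusted p = 0.0002861). NDRG1 had 43.05 and 35.46 CPM in the knockout, both above every deletion library (-1.28, SE 0.149, adjusted p = 1.108e-05). P4HA2 (-1.11, knockout libraries at 274.6 and 251.4 CPM), P4HA1 (-1.10, 223.7 and 175.6), BNIP3 (-1.07, 363.4 and 274.8), LDHA (-1.02, 3110 and 2138) and PGK1 (-0.97, 1428 and 1105) followed, each with all deletion libraries below both knockout libraries. ANKRD37 (-1.05), PFKFB3 (-0.90), TPI1 (-0.86), GPI (-0.77), PGAM1 (-0.77), PDK1 (-0.68), ALDOA (-0.68), PLOD2 (-0.59), ENO1 (-0.58), PFKL (-0.56) and HK2 (-0.48) were called too. The transcript of DDX5 itself ran the other way, at 406.4 CPM on average in the deletion and 150.3 in the knockout (1.44, adjusted p = 2.522e-05). ANGPTL4, was not called in this comparison: it had 12.40 and 15.63 CPM in the knockout, and a direct difference of 0.12 with an interval from -0.34 to 0.58.

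The direct comparison rested in part on 1 knockout library. Replicate 1 of every knockout was higher than replicate 2 for the abundant glycolytic enzymes: ENO1 had 4953 and 3485 CPM in the DDX5 knockout, 4817 and 3621 in the DDX17 knockout, 4459 and 3131 in the FNBP4 knockout and 4436 and 3019 in the HDAC7 knockout. LDHA, ALDOA, TPI1, GAPDH, PGK1 and GPI showed that order in all 4 knockouts as well, and over all genes the replicate differences of the knockouts correlated at 0.369 to 0.497. Exon-intron reads were 1.912 to 2.385% of junction reads in replicate 1 of the 4 knockouts and 3.661 to 5.904% in the other 30 libraries, and the part of this difference in the result was not tested. Without DDX5 knockout replicate 1 the direct comparison called 7 genes lower and 0 higher, and without replicate 2 it called 17. The 7 genes that held whichever library was left out were CA9, NDRG1, P4HA1, P4HA2, BNIP3, LDHA and PGK1.

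**Figure D3:**
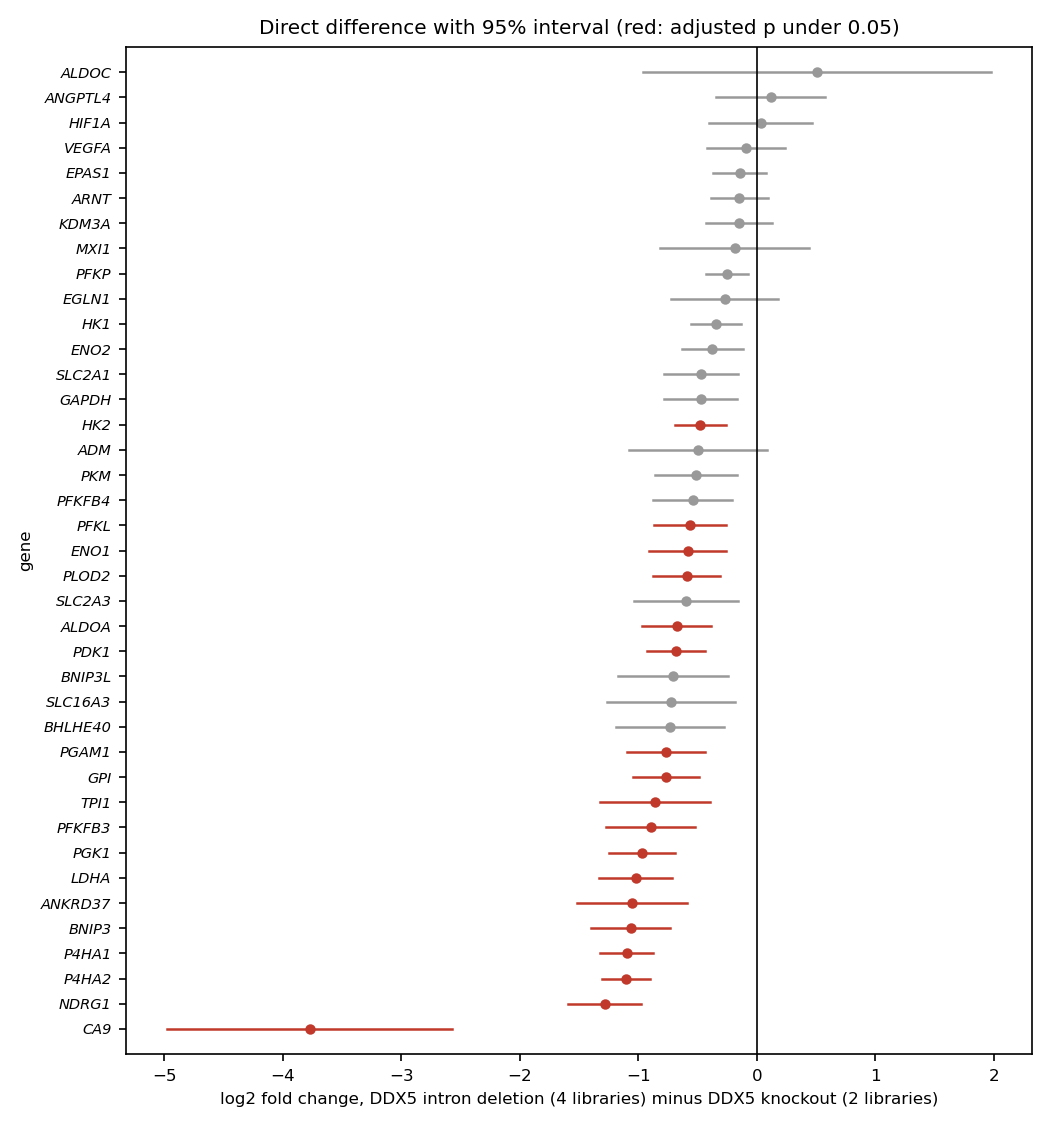
Log2 difference of each of the 39 tested genes between the DDX5 intron deletion (4 libraries) and the DDX5 knockout (2 libraries), points with 95% intervals, red where the adjusted p was under 0.05. All 18 red points lie left of 0, CA9 farthest at -3.77, and ANGPTL4 sits at 0.12.

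The DDX5 knockout against controls raised 8 genes and lowered 0, where 5.89% and 4.11% of all tested genes were called. HK2 had 186.9 and 178.3 CPM in the knockout and 92.55, 103.5, 115.7 and 114.5 in controls (0.78, SE 0.103, adjusted p = 5.008e-05). HK1, the ubiquitous hexokinase, had 1005 and 836.8 CPM against 606.5, 606.3, 626.5 and 679.6 (0.54, SE 0.102, adjusted p = 0.001498). For both hexokinases each knockout library was above all controls. ANGPTL4 (1.00), BNIP3L (0.76), PGK1 (0.48), PLOD2 (0.48), PDK1, a kinase that shuts off pyruvate dehydrogenase (0.43), and P4HA2 (0.41) were the others. CA9 was not called (11.08 and 9.790 CPM against 11.46 to 24.99). Without knockout replicate 1 only HK2 stayed called, and without control hgRNA 2 replicate 1 there were 4 calls.

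Next to the DDX17 deletion the DDX5 deletion again had lower levels, in 14 genes with 0 higher (3.15% and 2.23% of all tested genes). CA9 had 4.447, 12.69, 6.813 and 5.537 CPM in the DDX17 deletion, all above the DDX5 deletion (-3.09, SE 0.556, adjusted p = 0.001702). P4HA2 had 222.4, 282.5, 236.3 and 239.7 CPM there, all above the DDX5 deletion (2.002-fold, log2 difference -1.0, SE 0.0795, adjusted p = 3.755e-08). NDRG1 (-1.25), ANKRD37 (-1.07), P4HA1 (-0.91), PFKFB3 (-0.88), BNIP3 (-0.80), PFKFB4 (-0.61), LDHA (-0.55), PLOD2 (-0.53), PGK1 (-0.48), ENO2 (-0.44), HK2 (-0.38) and PFKP (-0.28) were also called. ANGPTL4 differed by 0.13 between these deletions (interval -0.25 to 0.50). Leaving out DDX5 deletion hgRNA 2 replicate 2 left 8 calls, and leaving out DDX17 deletion hgRNA 1 replicate 1 raised them to 23. HK2, PFKP, PFKFB4, PGK1, ENO2 and LDHA were each lost without some single library. PFKP was lost without any 1 of 6 of the 8 libraries (adjusted p up to 0.09873). When only the libraries compared were fitted, fewer of the 14 calls remained, as given in the closing section.

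Against controls the DDX17 deletion raised 5 genes and lowered 3 (2.27% and 2.72% of all tested genes). HK2 had 153.3, 208.8, 155.9 and 169.8 CPM, all above the controls (0.68, SE 0.0845, adjusted p = 2.618e-05), and ANGPTL4 had 10.76, 23.96, 11.80 and 13.16, also all above (1.00, SE 0.201, adjusted p = 0.004753). These held without any 1 library, but when only the libraries compared were fitted the adjusted p was 0.08382 for HK2 and 0.2079 for ANGPTL4, with 0 genes called. CA9 (-1.22, libraries overlapping with controls), VEGFA (-0.52), PDK1 (-0.44), PLOD2 (0.41), HK1 (0.37) and P4HA2 (0.31) were also called. Calls numbered 2 without DDX17 deletion hgRNA 2 replicate 2, and 3 or 5 when replicate 1 of control hgRNA 2 or replicate 2 of control hgRNA 1 was left out. In the DDX17 knockout HK2 was the 1 gene called higher (148.1 and 132.8 CPM, 0.40, adjusted p = 0.04555) and 0 were lower, with 0.762% and 1% of all tested genes called. That HK2 call was lost when any 1 of its 6 libraries was left out (adjusted p from 0.07114 to 0.5587, the highest without knockout replicate 1).

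The FNBP4 edits allow the deletion of the PTC exon to be set against a deletion within an intron of the same gene; 1 Cas9 guide is shared between intron deletion hgRNA 2 and PTC exon deletion hgRNA 3. Where the PTC exon was deleted, 7 genes were higher and 4 lower than controls (13.9% and 13% of all tested genes, shares near those of the 39). EPAS1, the HIF2 alpha subunit, had 51.62, 60.17, 68.40 and 74.24 CPM against 121.9, 127.6, 152.7 and 144.7 in controls, with a wide gap between them (-1.11, SE 0.09, adjusted p = 1.555e-08). ANGPTL4 had 1.671, 2.091, 2.267 and 2.760 CPM against 5.623 to 10.02, the reverse of its rise in the DDX5 deletion (-1.65, SE 0.272, adjusted p = 0.0001505). KDM3A rose to 162.1, 127.1, 131.8 and 125.4 CPM from 90.02, 77.51, 83.74 and 89.64 (0.67, SE 0.107, adjusted p = 0.0001048). NDRG1 (0.64), VEGFA (0.54), P4HA1 (0.49), PFKFB4 (0.48), ANKRD37 (0.48) and ARNT (0.34) were higher, and SLC16A3 (-0.62) and HK2 (-0.25) lower. SLC16A3 had 74.15 CPM in hgRNA 3 replicate 1 but 234.1, 230.3 and 234.0 in the other 3 libraries, and its adjusted p was 0.2924 without that replicate. The ANKRD37 call was lost without any 1 of 6 of the 8 libraries (adjusted p up to 0.09483). HK2 was lost without any 1 of 5 (up to 0.09715) and ARNT without any 1 of 3 (up to 0.1001). The count was 7 without control hgRNA 1 replicate 2 or without FNBP4 hgRNA 4 replicate 1.

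Within the intron deletion of FNBP4, 1 gene was higher and 3 lower than controls (1.27% and 2.25% of all tested genes). CA9 had 3.444, 3.344, 5.998 and 5.184 CPM, all under the lowest control of 11.46 (-1.79, SE 0.313, adjusted p = 0.001604). PDK1 had 16.98, 18.02, 18.48 and 17.65 CPM against 23.33, 24.09, 25.71 and 27.74 (-0.50, SE 0.101, adjusted p = 0.005567). VEGFA (-0.50) and HK2 (0.37) were called as well, and both calls were lost without FNBP4 hgRNA 1 replicate 1 (adjusted p of 0.1775 and 0.1234), and without 5 and 2 further single libraries. Leaving out that library, FNBP4 hgRNA 2 replicate 2 or control hgRNA 2 replicate 1 left 2 calls.

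The direct comparison of the FNBP4 deletions called 12 genes higher and 6 lower with the PTC exon removed (16.4% and 14.3% of all tested genes). The share lower was near that of all tested genes. CA9 had 14.98, 25.14, 23.72 and 24.52 CPM with the PTC exon removed, each above the 3.344 to 5.998 of the intron deletion (2.31, SE 0.306, adjusted p = 4.711e-06). ANGPTL4 had 9.169, 9.409, 11.61 and 12.90 CPM in the intron deletion, each above the other deletion (-2.27, SE 0.262, adjusted p = 7.275e-07). VEGFA had 157.9, 134.9, 109.6 and 121.6 CPM with the PTC exon removed and 58.02, 66.88, 67.14 and 60.42 in the intron deletion, again separate (1.04, SE 0.126, adjusted p = 1.374e-06). ANKRD37 (0.94), KDM3A (0.84), NDRG1 (0.84), PFKFB4 (0.84), P4HA1 (0.65), PDK1 (0.57), LDHA (0.51), BHLHE40 (0.48), GAPDH (0.42) and ARNT (0.37) were higher with the PTC exon removed. EPAS1 (-1.0), HK2 (-0.63), PLOD2 (-0.54), HK1 (-0.44) and P4HA2 (-0.27) were lower. Of the 18 calls 15 held without any 1 library. BHLHE40 was lost without any 1 of 7 of the 8 libraries (adjusted p up to 0.1907, without FNBP4 hgRNA 3 replicate 1). GAPDH was lost without FNBP4 hgRNA 3 replicate 1 (0.08961) or hgRNA 4 replicate 1 (0.06787). P4HA2 was lost without intron deletion hgRNA 1 replicate 1 (0.05855).

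In the HNRNPD deletion 3 genes were higher and 1 lower than controls (4.55% and 4.32% of all tested genes), too few to read against these shares. EPAS1 had 81.32 and 77.03 CPM, both below every control (-0.78, SE 0.11, adjusted p = 9.1e-05). VEGFA had 142.7 and 174.7 CPM, above every control (0.83, SE 0.152, adjusted p = 0.001211), and NDRG1 62.42 and 53.79 (0.69, SE 0.136, adjusted p = 0.002283). CA9, at 33.80 and 28.76 CPM, was the highest of any group by mean (1.04, adjusted p = 0.02745). EPAS1 alone held without any 1 library; without either HNRNPD library 2 genes were called.

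HDAC7 deletion raised 4 genes and lowered 0 (1.04% and 0.861% of all tested genes). ANGPTL4 had 14.45, 19.82, 17.52 and 13.33 CPM, above every control (1.21, SE 0.198, adjusted p = 0.00151). HK2 had 152.6, 175.3, 161.0 and 159.6 CPM (0.61, SE 0.0844, adjusted p = 0.0003752) and P4HA2 253.9, 313.3, 283.7 and 262.6 (0.49, SE 0.079, adjusted p = 0.001348), all above the controls. P4HA1 (0.35) was called with an adjusted p of 0.03865 and was lost without any 1 of 6 of the 8 libraries (up to 0.2219, without HDAC7 deletion hgRNA 2 replicate 1). Leaving out HDAC7 deletion hgRNA 1 replicate 1 raised the count to 8. When only the libraries compared were fitted, 0 genes were called (adjusted p of 0.1021 for ANGPTL4, 0.0818 for HK2 and 0.1362 for P4HA2). The libraries labelled HDAC7 knockout had 2 genes higher and 2 lower (3.43% and 3.07% of all tested genes), too few to read against these shares. CA9 had 5.206 and 4.582 CPM (-1.63, SE 0.409, adjusted p = 0.01913) and PFKFB4 12.78 and 13.12 (-0.57, SE 0.16, adjusted p = 0.03631), below all controls. HK1 (0.50, 977.5 and 804.5 CPM) and HK2 (0.50, 155.6 and 145.0 CPM) were above all controls. No call was left without replicate 1 of that knockout, and 2 were left without control hgRNA 1 replicate 2. With only the libraries compared there were 0 calls here and in the DDX17 knockout.

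The libraries labelled FNBP4 knockout had 3 genes higher and 2 lower (4.54% and 3.66% of all tested genes), too few to read against these shares. VEGFA had 41.27 and 55.18 CPM, both under the lowest control of 79.18 (-0.89, SE 0.161, adjusted p = 0.001162). HK2 had 179.5 and 178.3 CPM (0.75, SE 0.103, adjusted p = 5.842e-05), above every control. NDRG1 (-0.66), HK1 (0.49) and ANGPTL4 (0.80) were called too. Without replicate 1 there were 2 calls, and without replicate 2 there were 3; HK2 alone held without any 1 library.

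Across the 10 groups HK2 was the gene called most often. It was higher in 8 and lower in 1, the FNBP4 PTC exon deletion (91.26, 89.59, 88.08 and 87.03 CPM), and it was not called in the HNRNPD deletion (90.75 and 89.67). Every library of the 8 groups had at least 126.3 CPM, and every control at most 115.7. The 10 comparisons share the same 4 controls, so these calls are not independent. The HK2 call held without any 1 library in the DDX17 and HDAC7 deletions and the DDX5 and FNBP4 knockouts, and in no other group. In the DDX17 and HDAC7 deletions it was lost when only the libraries compared were fitted. ANGPTL4 and CA9 were called in 6 and 5 groups. In the groups where it was not called CA9 had 15.79, 35.41, 21.14 and 16.67 CPM in the HDAC7 deletion (0.46) and 19.41 and 22.56 in the DDX17 knockout (0.46). It had 5.846 and 9.319 CPM in the FNBP4 knockout (-1.02, adjusted p = 0.08941), and differed by 0.52 in the FNBP4 PTC exon deletion and -0.54 in the DDX5 knockout. EPAS1 was called in the FNBP4 PTC exon and HNRNPD deletions and lay between -0.11 and 0.24 in the other 8 groups, and ARNT between -0.09 and 0.26 in the 9 groups where it was not called. VEGFA was called in 6, lower in 4 and higher in 2. The 13 genes called in no group against controls were HIF1A, EGLN1, ADM, MXI1, SLC2A3, PFKL, ALDOA, ALDOC, TPI1, GAPDH, PGAM1, ENO1 and PKM. Their log2 differences stayed within -0.67 to 0.73 apart from ALDOC, an aldolase of at most 0.7107 CPM in any library, at -1.22 in the FNBP4 knockout. PKM, the last enzyme of glycolysis, ranged from -0.02 in the HNRNPD deletion to 0.50 in the DDX5 knockout (adjusted p = 0.05802). Control hgRNA 2 against control hgRNA 1 called 0 of the 39 genes and 0% of all tested genes, with 157 genes at an unadjusted p under 0.05. With 2 libraries on each side, this comparison can miss differences between the control hgRNAs.

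Group means showed how the 39 genes moved relative to one another. Over the 17 groups the median Pearson r of the 741 pairs was 0.40, and that of these genes with every other tested gene was 0.00223. The groups share handling and 2 of them are the controls, so r is given as a description. The DDX5 deletion groups, where 18 of these genes were called lower, are among the 17. The values of r are therefore not independent of those calls. Pairs within transcription, chromatin and stress response had a median r of 0.79, the triose phase 0.67, the collagen hydroxylases 0.625 and the hexose phase 0.25. The secreted factors (-0.18) and the HIF subunits and sensors (-0.08) had negative medians. The closest pairs were CA9 with ANKRD37 and BNIP3 with ENO2 (0.96 each). EPAS1 was most like ANGPTL4 (0.91) and least like its partner ARNT (-0.84), HK2 was most like HK1 (0.94), and HIF1A had no partner above 0.37.

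Promoter sequence was examined because many of the 41 genes were lower in the DDX5 deletion. One form of the core of the hypoxia response element, ACGTG, was searched on both strands in windows from 250 bases before to 50 after each start (RefSeq, GRCh38.p14); 37 of the 41 genes were matched, with 61 windows, and VEGFA, BNIP3L, NDRG1 and SLC2A3 were not. ACGTG was found in 25 of 61 windows (41%), against 7518 of 35116 windows of all genes (21.4%). Among 16 matched genes lower in the DDX5 deletion 12 held it, and among the 21 others 10 did; by window the shares were 46.2% and 37.1%. GCGTG, the other form of the core, which differs in its first letter, was in 45.9% of the 61 windows and 36.5% of all. A match is only a match of letters. The windows of 6 genes follow, 5′ to 3′ in the direction of the gene: the 5 matched genes with the lowest adjusted p among those that fell, and ANGPTL4, which rose. ACGTG or its reverse complement is in capitals, and P4HA2 and PFKFB4 hold none.
P4HA1, chr10:73096817-73097116, minus strand: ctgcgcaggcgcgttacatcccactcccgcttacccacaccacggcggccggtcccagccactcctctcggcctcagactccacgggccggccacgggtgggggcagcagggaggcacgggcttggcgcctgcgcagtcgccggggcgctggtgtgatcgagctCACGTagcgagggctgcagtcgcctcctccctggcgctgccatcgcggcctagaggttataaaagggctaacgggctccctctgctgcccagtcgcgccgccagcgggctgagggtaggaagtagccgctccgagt
P4HA2, chr5:132227042-132227341, minus strand: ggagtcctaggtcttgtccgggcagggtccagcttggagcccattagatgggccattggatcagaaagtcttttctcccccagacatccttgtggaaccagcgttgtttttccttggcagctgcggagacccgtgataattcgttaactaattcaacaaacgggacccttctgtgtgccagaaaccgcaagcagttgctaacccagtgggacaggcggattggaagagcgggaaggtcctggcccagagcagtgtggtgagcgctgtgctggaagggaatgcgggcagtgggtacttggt
CA9, chr9:35673678-35673977, plus strand: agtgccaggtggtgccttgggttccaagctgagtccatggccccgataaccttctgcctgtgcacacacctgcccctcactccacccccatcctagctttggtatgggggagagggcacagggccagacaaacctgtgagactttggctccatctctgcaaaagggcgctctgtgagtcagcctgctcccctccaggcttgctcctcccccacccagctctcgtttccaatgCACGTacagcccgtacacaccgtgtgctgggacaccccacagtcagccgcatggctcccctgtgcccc
BNIP3, chr10:131981874-131982173, minus strand: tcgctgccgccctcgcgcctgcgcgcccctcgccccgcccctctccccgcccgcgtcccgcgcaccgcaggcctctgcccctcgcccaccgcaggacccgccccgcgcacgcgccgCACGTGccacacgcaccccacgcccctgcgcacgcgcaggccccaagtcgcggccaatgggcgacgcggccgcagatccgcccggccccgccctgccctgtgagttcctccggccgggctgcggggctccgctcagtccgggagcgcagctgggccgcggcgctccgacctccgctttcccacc
PFKFB4, chr3:48556754-48557053, minus strand: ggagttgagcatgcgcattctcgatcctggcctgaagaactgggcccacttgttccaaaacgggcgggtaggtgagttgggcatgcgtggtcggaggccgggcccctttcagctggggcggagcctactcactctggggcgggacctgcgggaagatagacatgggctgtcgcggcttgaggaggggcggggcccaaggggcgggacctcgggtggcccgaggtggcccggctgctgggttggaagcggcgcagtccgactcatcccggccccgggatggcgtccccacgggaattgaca
ANGPTL4, chr19:8363905-8364204, plus strand: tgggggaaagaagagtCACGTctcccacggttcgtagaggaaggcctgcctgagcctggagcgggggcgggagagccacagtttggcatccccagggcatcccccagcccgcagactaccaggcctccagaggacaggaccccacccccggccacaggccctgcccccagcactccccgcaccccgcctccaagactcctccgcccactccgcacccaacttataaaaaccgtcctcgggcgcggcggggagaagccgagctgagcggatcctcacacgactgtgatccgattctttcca
The first base of a match lay 18 bases before the start in CA9, 86 in P4HA1 and 234 in ANGPTL4. BNIP3 had matches at 134 and 133 bases before the start, which are 1 palindrome read on both strands. Of the 5 genes that fell 3 carried a match in this window, and the gene that rose carried one too.

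Related genes outside the 41 were counted from 7 lists, to be read against 7.23% of all tested genes higher and 9.68% lower in the DDX5 deletion. In the DDX5 deletion 4 of 34 tested genes among further hypoxia-induced genes were higher and 10 lower (median log2 difference -0.15); DDIT4, an inhibitor of mTOR signalling, fell by 1.53, PPP1R3C, a glycogen-targeting phosphatase subunit, by 1.01, FUT11 by 0.84 and KDM4B by 0.69. Of 17 tested genes for collagen hydroxylation and crosslinking 9 were lower and 0 higher (median -0.54), led by P3H4 (-0.85), the collagen chaperone SERPINH1 (-0.77), LOXL3 (-0.74), PLOD1 (-0.64) and P3H1 (-0.63). Direct comparison with the DDX5 knockout (2.65% of all tested genes lower) gave 4 lower and 0 higher in this list (SERPINH1 -1.14, PPIB -0.66, LOX -0.57, PLOD1 -0.54) and 6 lower and 0 higher among further hypoxia-induced genes. The other 5 lists had 2 to 4 called genes each, too few to read against the shares of all genes. HIF pathway regulators had 2 higher (CITED2 0.69, MTOR 0.20) and 2 lower (DDIT4, ARNT2 -0.63) of 20. Other glycolysis and gluconeogenesis isoforms had 1 higher (TIGAR 0.30) and 2 lower of 15, the transporters SLC2A10 (-1.52) and SLC2A12 (-0.83). Genes of pyruvate, lactate and mitochondrial entry had 2 higher (SLC16A7 0.65, IDH3A 0.47) and 1 lower (PDK2 -0.84) of 24. The pentose phosphate pathway had 2 lower of 9 (PGLS -0.82, TKT -0.65), and the PKM splicing factors and MYC 2 lower of 9 (PTBP1 -0.29, KHDRBS1 -0.27).

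The FNBP4 PTC exon deletion was counted over the same lists (13.9% of all tested genes higher and 13% lower), and SLC2A10, PPP1R3C and PTBP1 were lower in it as in the DDX5 deletion. Among other glycolysis isoforms 2 were higher and 9 lower of 15 (median -0.55), including the hexokinase-like HKDC1 (-1.87) and the transporters SLC2A6 (-1.76), SLC2A8 (-1.40) and SLC2A10 (-1.28). Further hypoxia-induced genes had 3 higher and 11 lower of 34 (median -0.10), with TRIB3 (-1.58), PPP1R3C (-1.42) and MAFF (-1.07) lower. MYC fell by 1.17 on the log2 scale. Marker sums moved with some groups too: the summed retinal pigment epithelium markers were 921.8 to 1070 CPM in controls, 879.3 to 1085 in the DDX5 deletion and 871.8 to 1072 in the FNBP4 PTC exon deletion. They were 1352 to 1723 CPM in the DDX5 knockout, 1213 to 1448 in the FNBP4 knockout and 1145 to 1537 in the HDAC7 knockout, above all controls. The DDX17 deletion (1103 to 1276), the HNRNPD deletion (1169 to 1199) and the DDX17 knockout (1073 to 1280) were above all controls too. Most reads in these sums came from KRT8 and KRT18, with at least 6204 and 4179 reads per library. RDH5 came next with at most 700. Summed neuronal markers, nearly all SYT1, were 41.92 to 47.98 CPM in controls and higher in every library of the DDX5 deletion (50.86 to 54.39), the HNRNPD deletion (57.51 to 67.83) and the FNBP4 PTC exon deletion (68.94 to 105.8). Their part in the results was not tested.

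Few splicing events of the 41 genes were called. Of 1116 events in 37 of the genes with at least 20 reads in every library, 7 were called at an adjusted p under 0.05 and 10 percentage points or more over the 10 comparisons, and all lay at the first exon of GAPDH on chromosome 12 (GRCh38, GENCODE v29). They were 3 in the DDX5 deletion (0.0276% of 213815 events called), 2 in the FNBP4 PTC exon deletion (0.0154%) and 2 in the HDAC7 knockout (0.00702%). Exon 1 of GAPDH can end at position 6534569 or 92 bases further on, at 6534661. The upstream donor took 90.0% ± 6.21 (SD, n = 4) of junction reads in controls, 72.1% ± 4.18 (n = 4) in the DDX5 deletion (adjusted p = 0.01058), 75.7% ± 4.97 (n = 4) where the FNBP4 PTC exon was removed (adjusted p = 0.04058) and 66.5% ± 1.92 (n = 2) in the HDAC7 knockout (adjusted p = 0.03388). The first intron, chr12:6534570-6534809, was retained at 17.4% ± 2.65 in the DDX5 deletion and 4.99% ± 2.14 in controls (n = 4 each, adjusted p = 0.0346). Retained reads of that intron were alike, at 14 to 18.64 in controls and 14.29 to 19.2 in the deletion. Its spliced reads were 169 to 582 and 67.91 to 85.71, so the percentage rose without more retention. The donor shares are near complements and the intron begins at the upstream donor, so calls within a comparison are not independent.

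The shift in share came with a change in reads from the upstream donor. In CPM, upstream-donor reads were 18.18 to 71.07 in controls, 7.153 to 9.441 in the DDX5 deletion, 7.809 to 14.17 in the FNBP4 PTC exon deletion and 6.898 to 9.465 in the HDAC7 knockout. Downstream-donor reads stayed between 2.581 and 5.568 in all 34 libraries. Upstream reads were also low in groups that were not called, at 10.85 to 14.99 in the DDX17 deletion and 8.029 to 13.66 in the FNBP4 intron deletion, and high in the HNRNPD deletion at 74.72 and 85.10. Leaving out replicate 2 of control hgRNA 1, or replicate 1 of control hgRNA 2, lost all 7 calls; these were the controls highest in upstream reads (71.07 and 55.47 CPM). Why the upstream donor varied among libraries was not tested. Total GAPDH, at 2829 to 2961 CPM in the DDX5 deletion and 3336 to 3630 in controls, was not called.

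**Figure D4:**
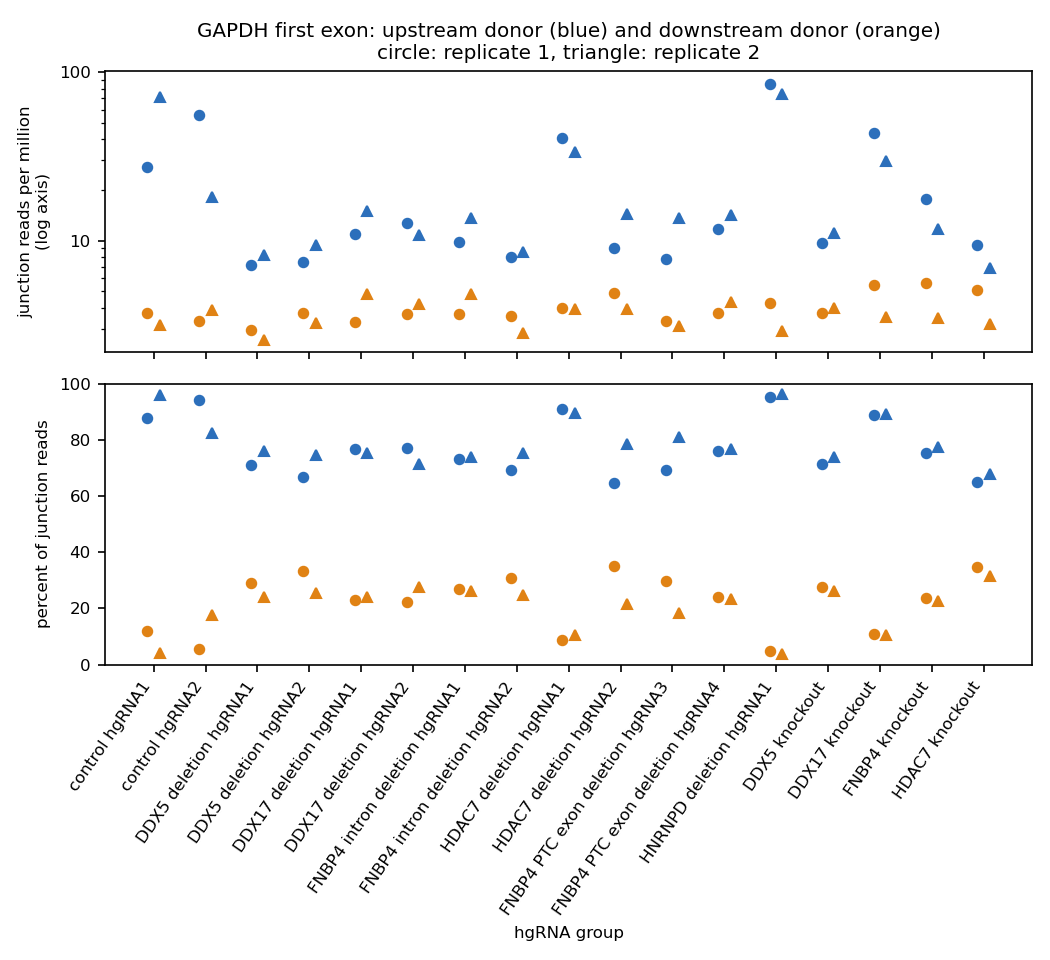
Reads from the upstream (blue) and downstream (orange) donor of GAPDH exon 1 in each library, as CPM on a log axis (top) and as percent of the junction reads of that exon (bottom), by hgRNA group, replicate 1 as a circle and replicate 2 as a triangle. Blue points range from 6.898 to 85.10 CPM while orange points stay within 2.581 to 5.568.

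PKM makes an M1 or an M2 enzyme by a choice between mutually exclusive exons. The exon of the M1 form, chr15:72203022-72203188 (167 bases), was included at 4.85% ± 0.314 (SD, n = 4) in controls and 4.26% ± 0.416 (n = 4) in the DDX5 deletion. In the 10 edited groups its mean ran from 3.12% in the DDX5 knockout to 5.91% in the FNBP4 knockout, and it was called in none (lowest adjusted p = 0.3551, in the FNBP4 PTC exon deletion, 3.38%). The other exon of the pair, chr15:72202454-72202620, had no event that could be tested. In ENO2 an exon at chr12:6919566-6919763 was included at 99.85% in controls and at 96.92% to 98.30% in 7 of the 10 groups. The adjusted p was 0.0002528 to 0.02583 in these, but the differences of 1.55 to 2.94 points were under the 10 points required for a call.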

How the data were processed

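Stranded total RNA of 34 libraries was measured. The authors deposited a table of percent spliced-in values per event and library. A further 2 library columns in it, headed TKO.ctrl, matched no listed sample and were not used. TKO is also the term in the titles of the knockouts. The knockouts were compared with the same intergenic controls as the deletions, and not with a control of their own. The quality strings of that table, per the file headers, hold the junction reads behind each value. From these strings the counts of spliced-junction reads were summed per gene over 192950 intron events, so the counts here were recovered from what the authors deposited and are not a deposited gene count. The authors also deposited RPKM per hgRNA with log2 fold changes and p-values per hgRNA, replicates combined; Salmon 1.10 and edgeR (version not given) are named in the submitters' processing notes. The aligner of the splicing table is not given in the sources used here.

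A gene was kept if at least 2 libraries held the equivalent of 10 reads at median depth and its total was at least 15. Counts were scaled by trimmed means of M values (trims of 0.3 and 0.05) and fitted with limma 3.58.1 (voom) in R 4.3.3, with 1 coefficient per hgRNA group and all 34 libraries (17 residual degrees of freedom), so every group shares a spread. A gene was called at a Benjamini-Hochberg adjusted p under 0.05 over 12081 genes, two-sided. Splicing was fitted by limma on log2((inclusion reads + 1)/(exclusion reads + 1)) for events with 20 reads in every library. Both fits were checked on simulated data. Python 3.11.15 did the parsing.

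Genes named in each comparison are those called, largest log2 difference first, with values in every library for up to 8; HIF1A, EPAS1, ARNT, CA9 and PKM are given by value or by range over the comparisons with controls. The 41 genes and the lists were chosen with earlier results of these data known. The labels call replicates biological duplicates; p-values measure the spread between them. Over all 136 pairs of groups, deviations of same-numbered replicates had a median correlation of -0.00638 (28 over 0.1), so the fit has no block; among the 4 knockouts all 6 pairs were at 0.369 to 0.497, but no comparison is between knockouts. Alternatives covered the filter, scaling, GC and length, the libraries fitted, either control alone, a replicate block and each library left out.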

Additional observations from a re-analysis of the deposited data

Results flagged for a closer look

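Of 234 sets of 4 libraries (39 genes in 6 sets), 28 had 1 library far from the other 3, judged by its gap against the range of the set; chance flags about 1 in 20 groups. FNBP4 PTC exon deletion hgRNA 3 replicate 1 gave 14 of them. There, SLC16A3 had 74.15 CPM (others 230.3 to 234.1), CA9 14.98 (23.72 to 25.14), BNIP3 202.5 (277.6 to 282.5), SLC2A1 541 (796 to 799.4), GPI 235.1 (321.9 to 324.3), PFKL 263.1 (425.2 to 441.8) and PFKFB3 31.56 (49.15 to 49.78). ALDOA had 1493 CPM (1880 to 1937), TPI1 1355 (2035 to 2071), PGAM1 459.9 (651.9 to 671.5) and ENO1 2567 (3264 to 3306), also low. EGLN1 at 45.13 (37.89 to 38.75), PLOD2 at 1332 (1038 to 1055) and LDHA at 2608 (2216 to 2245) were high in that library.

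Replicate 2 of DDX17 deletion hgRNA 1 was low for EGLN1 at 18.1 CPM (34.76 to 36.02) and GAPDH at 2782 (3174 to 3249). It was high for ADM at 139.9 (49.22 to 63.65), SLC16A3 at 343.8 (222 to 237.1) and TPI1 at 3261 (1601 to 1882). Replicate 2 of HDAC7 deletion hgRNA 1 was low for HIF1A at 412.4 CPM (712.1 to 728.9), EGLN1 at 20.83 (34.18 to 36.73) and KDM3A at 72.91 (91.03 to 92.29). EGLN1 and HIF1A, both in the oxygen-sensing step, were thus low in libraries that stood apart over all genes.

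Replicate 1 of DDX5 deletion hgRNA 2 was the highest of its set for P4HA1 at 105.7 CPM (86.9 to 89.84), PFKFB4 at 13.5 (8.954 to 9.7) and PGAM1 at 634 (547 to 557.5). P4HA1 and PFKFB4 were still below every control there. Control hgRNA 1 had MXI1 at 15.78 CPM in replicate 2 (23.39 to 24.77) and LDHA at 1955 in replicate 1 (2070 to 2082). HIF1A in FNBP4 intron deletion hgRNA 1 replicate 2 was at 791.9 CPM (822 to 827).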

How the results depend on the processing

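All calls over the 13 comparisons kept their sign in the 2275 alternative values; 46 were never lost, 56 were lost when some 1 library was left out and 64 under another alternative. In the DDX5 deletion CA9, NDRG1, ANKRD37, ANGPTL4, BNIP3, P4HA1, P4HA2, PFKFB3, PFKFB4, PGK1, ENO2 and LDHA were never lost.

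Leaving out each library in turn gave 17 to 19 called genes for the DDX5 deletion (20 with all), 2 to 10 for the DDX17 deletion (8), 2 to 5 for the FNBP4 intron deletion (4), 7 to 13 for the FNBP4 PTC exon deletion (11), 3 to 8 for the HDAC7 deletion (4), 2 to 4 for HNRNPD (4), 1 to 8 for the DDX5 knockout (8), 0 to 0 for the DDX17 knockout (1), 2 to 5 for the FNBP4 knockout (5) and 0 to 5 for the HDAC7 knockout (4). For the direct comparisons it gave 16 to 20 for the FNBP4 deletions (18), 8 to 23 for DDX5 against DDX17 deletion (14) and 7 to 17 for DDX5 deletion against knockout (18), and for splicing 0 to 11 events (7).

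Fitting only the libraries compared gave 0 for the DDX17 deletion, HDAC7 deletion, DDX17 knockout and HDAC7 knockout, 13 for the FNBP4 intron deletion, 4 for the DDX5 knockout, 3 for the FNBP4 knockout, 4 for DDX5 against DDX17 deletion and 28 for DDX5 deletion against knockout; fewer samples then set the spread. Removing the GC and length trend (96.7% of genes had both) gave 8 for the FNBP4 intron deletion, 7 for the HDAC7 deletion, 8 for HNRNPD, 16 for the DDX5 knockout, 9 for the FNBP4 knockout and 7 for the HDAC7 knockout. Without a filter the DDX17 knockout had 2. Control hgRNA 1 alone gave 7 for the FNBP4 PTC exon deletion. Control hgRNA 2 alone gave 2 for the DDX17, FNBP4 intron and HDAC7 deletions and the DDX5 knockout, and 0 for the DDX17 and HDAC7 knockouts. Without the 3 libraries that stood apart, an alternative chosen after seeing the data like that of single hgRNAs, there were 4 for the DDX17 deletion, 7 for HNRNPD, 2 for the DDX17 knockout and 9 for the FNBP4 and HDAC7 knockouts. Single hgRNAs gave 12 for DDX5 hgRNA 2, 4 and 2 for DDX17 hgRNA 1 and 2, 2 and 0 for FNBP4 intron hgRNA 1 and 2, 6 for FNBP4 PTC exon hgRNA 4, 6 for DDX5 hgRNA 2 against the DDX17 deletion and 11 against the DDX5 knockout. A pseudocount of 0.5 left 3 splicing events. Apart from the causes named, the cause was not tested.

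With the replicate number as a block, 20 genes were called for the DDX5 deletion, 12 for the FNBP4 PTC exon deletion and 20 for DDX5 deletion against knockout, and no count moved by over 1.5 times. Low reads limit CA9 in the DDX5 deletion, and EGLN3 and CA12 throughout.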
